A study of Mus musculus with 12 samples.

Results

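The genes described here encode the proteins of the cytosolic ribosome, the particle that translates messenger RNA. Members were the rows of the expression table whose symbol begins with Rpl, Rps or Rplp followed by a digit, without pseudogene symbols (those containing -ps) and without the Rps6k kinases. The rule found 85 of 23421 gene symbols. Of these, 52 are large subunit symbols and 32 small subunit symbols. The 32 include Rps4y2, counted here with the small subunit genes though RefSeq annotates it as a transcribed pseudogene. The remaining match, Rps19bp1, encodes a binding partner of Rps19 and no ribosomal subunit. 8 of the 84 ribosomal symbols are near copies of another member: Rpl3l, Rpl7l1, Rpl10l, Rpl22l1, Rpl36al, Rpl39l, Rps27l and Rps4y2. Without them, 76 genes remained, 46 of the large and 30 of the small subunit. The members lie on 19 chromosomes.

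Expression was measured by RNA sequencing in mouse cells sorted on a flow cytometer because they expressed T, also called Brachyury, a T-box factor of the primitive streak and early mesoderm. In the mutant, T_Y88A, T carries a changed amino acid, and all samples share a 129S2/C57Bl6J background. From embryos there was 1 library labelled wild type (called wt-labelled here), pooled over Theiler stages TS12 and TS13, and 1 T_Y88A library of each stage. From cultures there was 1 library labelled wild type and 1 T_Y88A library, both at Day 4 of differentiation from embryonic stem cells that had been aggregated, treated with BMP4 and then with WNT3A and FGF8. The series text calls heterozygous embryos (T_het) wild type, and in the deposited table the column of that library is named like the T_Y88A columns, so each embryo direction rests on the sample label. The labels do not state whether each library is from its own animals or culture, so p-values measure the spread between these libraries, which may be technical. Values are FPKM (fragments counted per kilobase of gene length and scaled to the mapped total), so levels can be compared between genes. Lists of 5 values follow 1 order throughout: the wt-labelled embryo library, T_Y88A TS12, T_Y88A TS13, the wt-labelled Day 4 library and Day 4 T_Y88A.

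A ribosome is built in the nucleolus from ribosomal RNA and one copy of most of its proteins, so the protein genes of both subunits are usually expressed at similar, high levels. Their messenger RNAs typically begin with a run of pyrimidines, the 5′ terminal oligopyrimidine tract, through which mTOR signalling sets their translation. The small subunit decodes the messenger, the large subunit forms the peptide bond, and the acidic stalk proteins Rplp0, Rplp1 and Rplp2 of the large subunit recruit elongation factors. Many of these genes also carry small nucleolar RNAs in their introns and have left many processed pseudogenes in the genome.

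A run of pyrimidines is visible near the annotated starts of some of these genes and not of others. Shown are 5 examples picked for their runs (Rpl35, Rpl4, Rplp2, Rps24 and Rps27) and 2 members far from the common pattern (Rps16 and Rps21), so the lines are no fair sample of the family. Each line holds 15 bases before and 15 bases from the start, 5′ to 3′, with the longest run of C or T in capitals. The sequences are those of RefSeq (GRCm38.p6) and lie, in the order of the lines, at chr2:39005117-39005146 on the minus strand, chr9:64173372-64173401 on the plus strand, chr7:141447636-141447665 on the plus strand, chr14:24490663-24490692 on the plus strand, chr3:90213634-90213663 on the minus strand, chr7:28350674-28350703 on the plus strand and chr2:180257364-180257393 on the plus strand.
Rpl35: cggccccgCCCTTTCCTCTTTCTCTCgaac
Rpl4: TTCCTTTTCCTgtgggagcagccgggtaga
Rplp2: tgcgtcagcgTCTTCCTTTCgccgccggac
Rps24: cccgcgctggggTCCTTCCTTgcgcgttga
Rps27: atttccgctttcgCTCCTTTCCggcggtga
Rps16: cccgCTTCTgtcgtgacgtagcactcaatg
Rps21: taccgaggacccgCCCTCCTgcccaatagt
The run in Rpl35 was 18 bases long, that in Rpl4 11 and that in Rplp2 10, against 5 bases in Rps16 and 7 in Rps21. The marked runs of Rpl4 and Rps16 lie wholly before the annotated first base. That of Rpl4 begins at the edge of the printed window, so its full length is not seen. In the same window of other genes, not shown, the longest run was 10 bases in Rpl22l1, 7 in Rps12, 4 in Rps28 and 3 in Rps13. Rps24 and Rps21 each have a further annotated start, also not shown, where the longest run was 4 bases. Annotated starts can miss the true first base by a few positions, so a short run here describes the window only.

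RefSeq start windows were matched for 56 of the 76 genes that are no near copies, 66 windows in all. A run of at least 8 C or T on the sense strand within 25 bases either side of the start was present in 47.0% of these windows, against 19.7% of 32851 windows of all genes, and the median longest run was 7 bases in members and 5 in all windows. Large subunit genes had it in 52.5% of 40 windows and small subunit genes in 38.5% of 26. In the windows from 250 bases before to 50 after the start, both strands were searched for short motifs. CCGGAAG, the core that ETS factors such as GABPA bind, was in 36.4% of member windows and 8.86% of all windows. GGGCGG, the GC box, was in 60.6% and 35.7%, and AAGATGG, the core bound by YY1, in 16.7% and 6.34%. TATAAA was in 9.09% and 13.6%. The T-box element TCACACCT was in 0 of the 66 windows and in 1.28% of all windows, which says only that these letters are not there. A further shared feature is that 29 of the 83 protein-coding members (34.9%) contain an annotated small nucleolar RNA, against 336 of 19019 protein-coding genes in the table (1.77%). Rpl4 holds 5 of them, and Rpl7a and Rpl13a hold 4 each.

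Ribosomal protein genes were among the most abundant messages in all 5 libraries. They held 18.5% of all FPKM in the wt-labelled embryo library, 21.0% in T_Y88A TS12, 20.3% in T_Y88A TS13, 19.9% in the wt-labelled Day 4 library and 20.7% in Day 4 T_Y88A. The share was lowest in the wt-labelled embryo library, and the other 4 lay close together. Between 51 and 58 of the 100 most abundant genes of each library were members. By their mean over the libraries, 43 of the 84 ribosomal symbols stood above 1000 FPKM, 35 between 100 and 1000, 3 between 1 and 100 and 3 below 1.

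**Figure D1:**
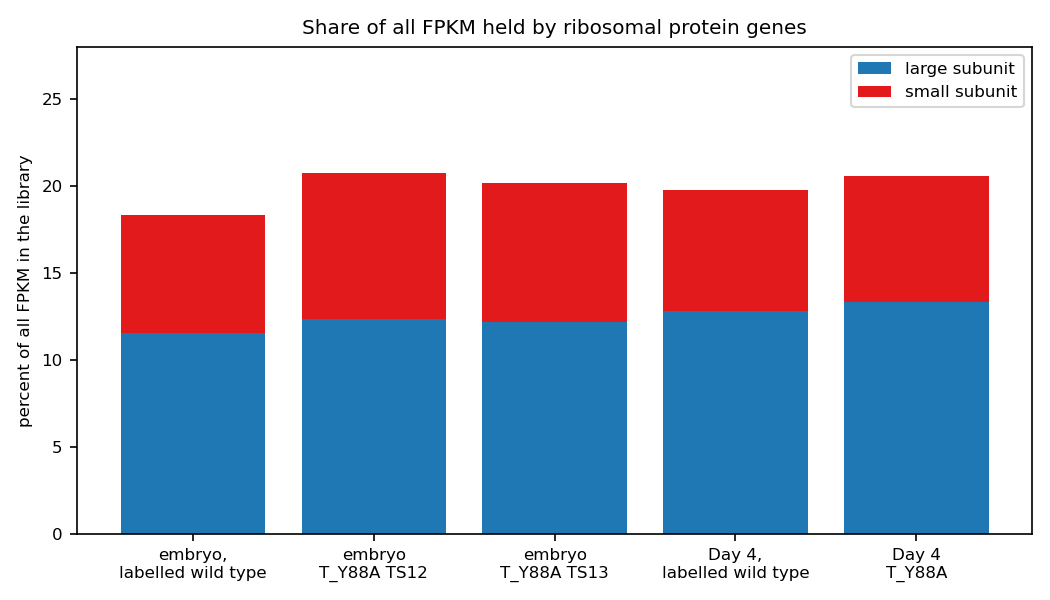
Percent of all FPKM in each of the 5 libraries held by large subunit genes (blue) and small subunit genes (red), without the near copies and Rps19bp1. The embryo library labelled wild type has the lowest bar, and the small subunit part is widest in the T_Y88A embryo libraries.

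The subunits differed little in level within a library, and the ratio of large to small was highest in the 2 Day 4 libraries. The median large subunit gene stood at 1100.4 FPKM in the wt-labelled embryo library, 1304 in T_Y88A TS12, 1258 in T_Y88A TS13, 1051 in the wt-labelled Day 4 library and 1147 in Day 4 T_Y88A. The median small subunit gene stood at 1113, 1342, 1225, 939 and 957 FPKM. The ratio of these medians, large over small, was between 0.972 and 1.03 in the 3 embryo libraries and 1.12 and 1.20 in the Day 4 libraries. These medians leave out the near copies.

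The 5 highest members by mean FPKM came from both subunits. Rps3a1, a small subunit protein at the messenger exit, stood at 3215, 3307, 3153, 3064 and 2499 FPKM. Rpl36a was at 2805, 2952, 2822, 3285 and 3103, and Rpl7 at 2716, 3314, 2781, 3194 and 2864. Rps23, a decoding centre protein, was at 2658, 2836, 2796, 2599.6 and 2841. Rpl35, which sits beside the peptide exit tunnel, was at 2916, 3167, 2790.0, 1594 and 1844, high in every embryo library and lower in both Day 4 libraries. Levels were steady for most of the 76 genes that are no near copies: the median ratio of the highest to the lowest library was 1.53, and 6 genes ranged over more than 3-fold. Rpl19 was the steadiest, at 1646, 1636, 1630.3, 1688 and 1682 FPKM, a range of 1.04-fold. The wide ranges included those of Rps27, Rps16, Rps21, Rps29 and Rpl30. Across the 76 genes, log2 levels of any 2 libraries correlated at r = 0.767 to 0.971; these genes share their libraries, and the values are a description.

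**Figure D2:**
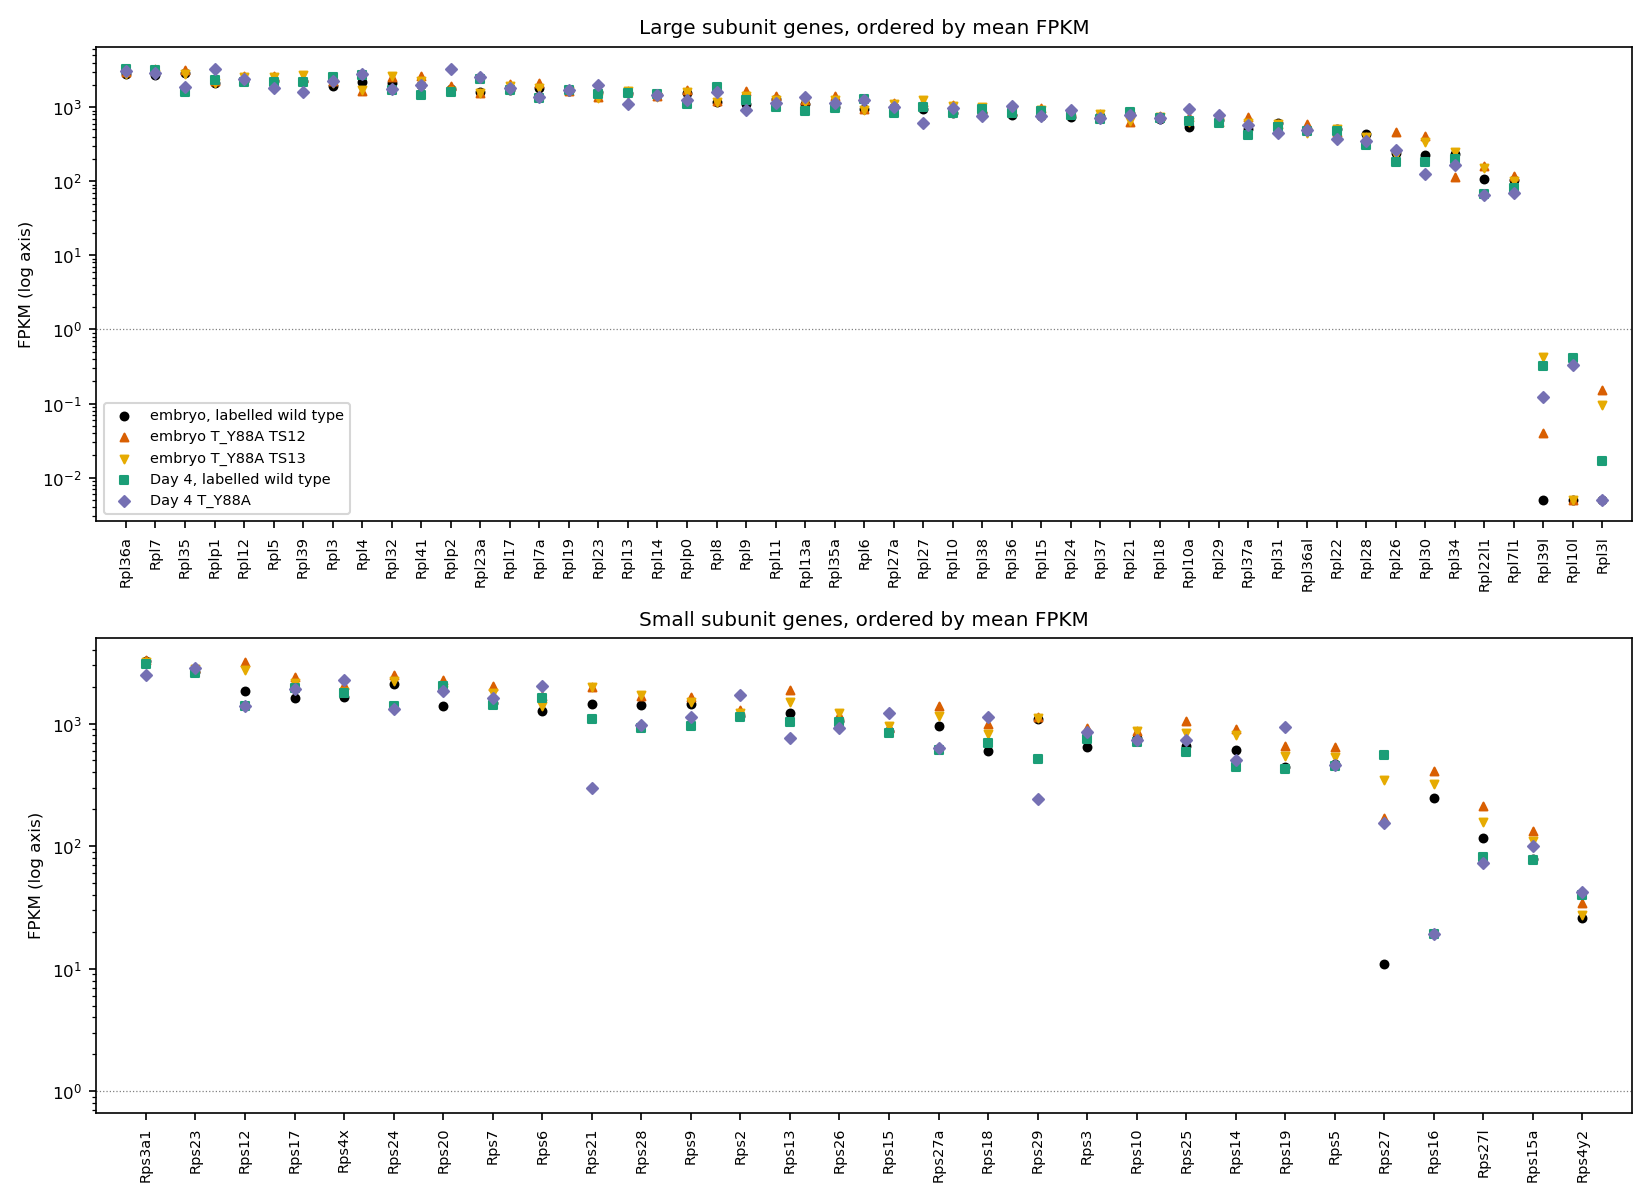
FPKM on a log axis of large subunit genes (top) and small subunit genes (bottom) in the 5 libraries, ordered by mean, with a dotted line at 1 FPKM and values under 0.005 FPKM or at 0 drawn at 0.005. Most genes form a tight column of 5 points, and Rps27, Rps16, Rps21 and Rps29 spread widely.

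Near copies stood below their parent genes in every library, except Rps27l. Rpl36al, a retrotransposed copy of Rpl36a, stood at 494, 584, 445, 469.7 and 485 FPKM, 14.3% to 19.8% of its parent. Rpl22l1 was at 14.4% to 34.1% of Rpl22, Rpl7l1 at 2.44% to 3.87% of Rpl7, and Rps4y2 at 1.53% to 2.25% of Rps4x. RefSeq annotates the row Rps4y2 as a transcribed pseudogene, Rps4l. Rps27l, a p53-inducible relative of Rps27, was at 14.7% to 126% of Rps27 in 4 libraries and at 1075% in the wt-labelled embryo library, where Rps27 itself was low. The 3 members below 1 FPKM were tissue-restricted copies. Rpl3l, a muscle form, stood at 0, 0.153, 0.0953, 0.0169 and 0 FPKM, Rpl10l, a testis form, at 0, 0, 0, 0.408 and 0.334, and Rpl39l, also best known from testis, at 0, 0.0396, 0.431, 0.317 and 0.121. An exact 0 can be a failed estimate, so these are read only as listed at 0. They were the 3 members under the filter of a mean of 1 FPKM, and the other 82 were tested in each fit. Rps19bp1 stood at 26.4, 19.9, 15.6, 18.9 and 18.5 FPKM.

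For some members the reads may be split between the gene and a near-identical row outside the rule. The row Rpl34-ps1, a pseudogene by its symbol, stood at 2017, 2728, 2577, 1182 and 1019 FPKM, while Rpl34 stood at 231, 113, 246, 199 and 167. Likewise Gm15772, which RefSeq lists as a transcribed pseudogene with Rpl26 as a synonym, stood at 2727, 2894, 3039.6, 2755 and 3394 FPKM, and Rpl26 at 239.7, 464, 228, 179.5 and 266. The copy exceeded the gene 5.95-fold to 24.1-fold for Rpl34 and 6.23-fold to 15.4-fold for Rpl26. In sum, gene plus copy came to 2248, 2841, 2823, 1381 and 1186 FPKM for Rpl34, and to 2967, 3358, 3268, 2935 and 3660 FPKM for Rpl26. These sums lie in the range of other abundant members, while Rpl34 and Rpl26 alone are among the lowest. Whether a split of reads lowers these rows was not tested. Rps15a was at 77.9, 132, 111, 77.4 and 100.5 FPKM, with 2 copies that together held 0.411 to 1.11 times as much. Its sum with them stayed low, at 165, 272, 229, 137 and 142 FPKM. RefSeq lists 309 pseudogene symbols of these genes and the table has 6 rows of that kind, so splits with sequences outside the table cannot be seen. The sources used here do not give how reads that match several places were assigned, and single values of these genes are uncertain.

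The libraries also differed in the levels of cell type markers. Blood markers summed to 6277 FPKM in the wt-labelled embryo library, 1111 in T_Y88A TS12 and 2196 in T_Y88A TS13, with all 6 genes of that list lower by the test. In the Day 4 libraries they summed to 0.658 and 2.27 FPKM, with the globin genes Hba-x, Hbb-bh1 and Hbb-y listed at 0. T itself stood at 65.9, 69.8, 26.99, 72.9 and 32.5 FPKM. All 8 streak and caudal markers stood at 1 FPKM or more in each embryo library and 4 of 8 in each Day 4 library, where Cdx2 was at 0.0974 and 0.250 FPKM and Nanog, a pluripotency factor, at 62.1 and 97.9. The ribosomal RNA precursor Rn45s stood at 2537, 1308, 1316, 1801 and 6061 FPKM. FPKM keep no read totals, so absolute depth is unknown. A rough estimate from the steps between low values put Day 4 T_Y88A at 0.486 of the depth of the wt-labelled embryo library, the lowest of the 5. In bulk samples, fewer cells of a type and less RNA per cell cannot be told apart.

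The embryo comparison asks what differs in sorted cells of T_Y88A embryos. Most small subunit genes stood a little above the wt-labelled library in both T_Y88A libraries, and large subunit genes lay on both sides. Both T_Y88A libraries were above the wt-labelled library for 30 of 32 small subunit genes, Rps3a1 being an exception, and for 27 of 49 large subunit genes. Both were below it for 0 small and 11 large subunit genes, among them Rpl4, Rpl21 and Rpl23. Over all 82 members tested, 57 were above and 12 below, where 37% of all 11145 genes tested were above and 38% below. With quantile normalization, 26 small and 23 large subunit genes were above and 2 small and 14 large were below. Under that scaling, 39.6% of all genes tested were above and 35.4% below. The median log2 difference was 0.33 for the small and 0.10 for the large subunit, 0.18 over all members and -0.01 over all genes. The difference between the subunits was not tested. Per library, the member median was 0.23 in T_Y88A TS12 and 0.14 in T_Y88A TS13.

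**Figure D3:**
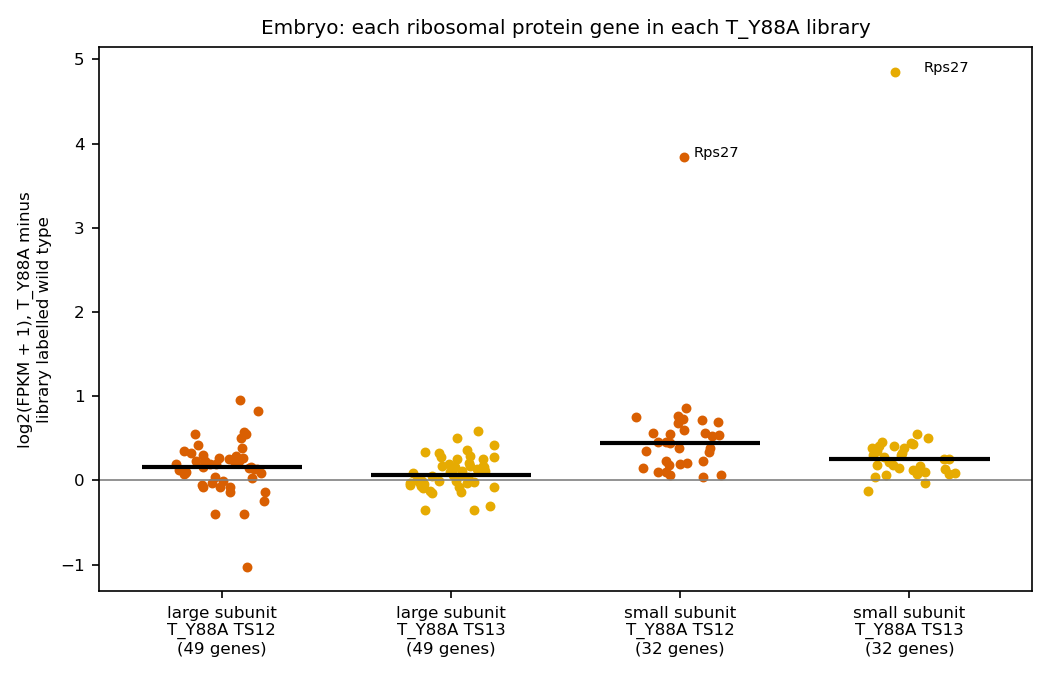
Difference in log2(FPKM + 1) between each T_Y88A embryo library and the wt-labelled embryo library, 1 point a gene, with the median as a bar. Small subunit genes lie mostly above 0 in both libraries, large subunit genes lie on both sides, and Rps27 stands apart at the top.

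Few of these differences passed the test. limma with Benjamini-Hochberg adjustment over all genes, at a threshold of 0.05, called 2 members higher (0.763% of all genes) and 0 lower (1.63% of all genes). In either direction, 2.4% of all genes were called. An unadjusted p under 0.05 by limma was found for 25 of 82 members and for 1826 of 11145 genes tested. The 2 called members were Rps27 and Rpl30. The spread in this fit comes from the 2 T_Y88A libraries, which differ in stage, and the 1 library labelled wild type is assumed to vary like them. Markers of other cell types moved in the same comparison. Beside the 6 blood genes, all 4 endothelium genes were called lower, with sums of 59.2, 20.8 and 28.4 FPKM in the 3 embryo libraries. Of the 8 streak and caudal genes, Msgn1 and Tbx6 were called lower and Nkx1-2 higher, with sums of 263, 307 and 178 FPKM. Of the 4 neural genes Sox2 was called higher, with sums of 23.4, 37.1 and 54.2 FPKM. Of the 1 endoderm, 4 fibroblast and 2 pluripotency genes tested, 0 were called by limma, and 1 fibroblast and 1 pluripotency gene had an unadjusted p under 0.05. The part of these cell types in the shift of the ribosomal protein genes was not tested.

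Rps27, a zinc finger protein on the surface of the small subunit (chromosome 3, 90212667 to 90213648), stood at 10.9, 169.8, 343, 553 and 155 FPKM. The embryo library labelled wild type was far below the other 4, and no other member above 0 in all 5 libraries varied as much. The ratio of its highest to its lowest library was 50.7. The embryo log2 difference was 4.35 ± 0.30 (SE), adjusted p = 1.14e-05 by limma. The call ended with robust variance moderation (adjusted p = 0.207) and when no low genes were filtered out (0.356). It rests on 1 low library. RefSeq names Rps27 as a synonym of Rps27rt, a copy of the gene that has no row of its own in the table, so a split of reads cannot be checked.

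Rpl30, a large subunit protein that in yeast also represses the splicing of its own messenger (chromosome 15, 34440505 to 34443276), stood at 227, 403, 341, 182 and 125 FPKM. Both T_Y88A embryo libraries were above every other library. Its embryo log2 difference was 0.70 ± 0.16 (SE), adjusted p = 0.0416 by limma, and the call ended under 5 of the 9 other settings, with adjusted p from 0.0527 to 0.358. Rps12, a small subunit protein linked to cell competition in Drosophila, followed closest without passing, at 1858, 3160.2 and 2732 FPKM in the embryo libraries (log2 difference 0.66 ± 0.16 (SE), adjusted p = 0.0515 by limma). Rps15a, Rps18 and Rpl22l1 missed the threshold too, at 0.63, 0.59 and 0.54 on the log2 scale. The stalk genes were close to level, at 1543, 1688 and 1616 FPKM for Rplp0, 2116, 2281 and 2100.4 for Rplp1 and 1736, 1902 and 1670.3 for Rplp2.

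Genes around the ribosome were compared in the same way. For ribosome biogenesis, a list of 39 nucleolar and RNA polymerase I genes was used. Both T_Y88A libraries were below the wt-labelled library for 24 of them and above it for 3, with a median log2 difference of -0.21. Of all 11145 genes tested, 38% were below and 37% above. Nop56, a core protein of the box C/D small nucleolar particles, stood at 312, 224 and 193 FPKM and Ncl, nucleolin, at 140.4, 94.5 and 110.0. Among 76 mitochondrial ribosomal protein genes, 27 were above and 27 below, near the shares of all genes, with a median of 0.03. A list of 20 other genes with pyrimidine tract messages, most of them translation factors, had a median of 0.08. In each of these 3 lists 0 genes were called in the embryo comparison. Rpsa, Fau and Gnb2l1, ribosomal components with other symbols, were not called. The median of 11 regulators of ribosome production and translation was -0.07, again with 0 calls.

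Between T_Y88A TS12 and T_Y88A TS13 there was 1 library a stage and no test. Most members stood slightly lower at TS13, with a median log2 difference of -0.09 (all genes -0.01). At least 1.5-fold apart were 2 members higher at TS13 (2.6% of all genes) and 1 lower (2.72%), where 5.33% of all genes were that far apart in either direction. The higher ones were Rpl34 (log2 difference 1.11) and Rps27 (1.01), and the lower one was Rpl26 (-1.02). Summed with their copies, Rpl34 differed by -0.01 and Rpl26 by -0.04 on the same scale. Rps15a differed by -0.25 both alone and summed with its copies. The part of split reads in these differences was not tested.

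The comparison of Day 4 with embryo cells asks how the culture differs from the tissue it models, with genotype as a covariate. Ribosomal protein genes changed in both directions, and the largest decreases were in the small subunit. limma with Benjamini-Hochberg adjustment called 6 members higher (25.9% of all 11602 genes tested) and 19 lower (26% of all genes) at Day 4. Together, 25 of 82 members were called, where 51.9% of all genes were. By subunit, 1 small subunit gene was higher and 12 lower, and 5 large subunit genes were higher and 7 lower. The member median was -0.15 (all genes -0.01), -0.20 for the small and -0.08 for the large subunit. With quantile normalization the member median became 0.07 and the calls 16 higher and 13 lower, so no common direction of the whole family can be given. All 3 embryo libraries were above both Day 4 libraries for 31 of 82 members and below both for 10, against 34.8% and 34% of all genes. Markers of cell types differed as well. All 4 pluripotency genes were called higher at Day 4, with sums of 31.1, 60.9, 9.79, 321 and 410.1 FPKM in the 5 libraries. So were the endoderm genes Cer1 and Foxa2, in a list of 4 with sums of 3.90, 2.80, 1.91, 82.6 and 39.0 FPKM. Called lower were 5 of 6 blood genes, all 4 endothelium genes (2.21 and 0.855 FPKM in sum at Day 4) and all 4 fibroblast genes (10.4, 13.9, 15.7, 1.23 and 1.23 FPKM). Pax6 and Hes5 of the 4 neural genes were called lower too. The neural sums overlapped, at 23.4, 37.1, 54.2, 44.8 and 34.5 FPKM. Sox2, which was not called, held most of the Day 4 neural sums, at 43.8 and 34.1 FPKM. Of 8 streak and caudal genes, 6 were called lower and Fgf8 higher (106 and 97.4 FPKM in sum at Day 4). The part of these cell types in the differences of the ribosomal protein genes was not tested.

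Rps16, a small subunit protein whose tail reaches the decoding centre (chromosome 7, 28350689 to 28352698), had the largest difference of all members. It stood at 247, 410.1, 323, 19.1 and 19.2 FPKM. Its 2 Day 4 libraries were nearly equal and far below every embryo library. The means were 327 ± 81.4 FPKM (SD, n = 3) over the embryo libraries and 19.1 ± 0.0972 FPKM (SD, n = 2) at Day 4. The log2 difference was -3.94 ± 0.18 (SE), adjusted p = 4.72e-06 by limma. Rps16 kept its call under every setting run on all 5 libraries, none of which changed how reads were assigned to genes.

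Rps21 and Rps29 were lower in both Day 4 libraries, and lowest in Day 4 T_Y88A. Rps21, a small subunit protein found in eukaryotes (chromosome 2, 180257379 to 180258444), stood at 1457, 1985, 1999, 1082 and 296 FPKM. Its log2 difference was -1.75 ± 0.43 (SE), adjusted p = 0.00935 by limma, but -0.43 without Day 4 T_Y88A, where the call ended (adjusted p = 0.0804). The call also ended with robust variance moderation (adjusted p = 0.116 by limma) and with no filter on low values (0.0758). Rps29, a small zinc-binding protein of the small subunit head (chromosome 12, 69157722 to 69159186), stood at 1082, 1130.3, 1111, 515 and 241 FPKM. Its 3 embryo values were almost equal. The log2 difference was -1.72 ± 0.24 (SE), adjusted p = 0.000645 by limma, and the call held under all settings tried, with -1.07 without Day 4 T_Y88A.

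Other small subunit genes fell by smaller amounts. Rps12 (-0.80), Rps13 (-0.76), Rps24 (-0.74), Rps28 (-0.73), Rps14 (-0.63) and Rps9 (-0.51) fell as well, and so did the near copy Rps27l (-0.98). The 1 small subunit symbol that rose was the pseudogene row Rps4y2, at 25.8, 34.1, 27.4, 40.0 and 42.7 FPKM.

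Rps27a, whose product is cut into ubiquitin and a small subunit protein, stood at 956, 1385, 1162, 605 and 629.9 FPKM and fell (log2 difference -0.86 ± 0.16 (SE)). All 3 embryo values of Rps27a lay above both Day 4 values. Rpsa, Fau and Gnb2l1 did not pass.

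In the large subunit, 5 genes rose. Rpl23a, which binds nascent chain factors at the tunnel exit, stood at 1617, 1562, 1566, 2361 and 2547 FPKM (0.64). Rpl4, which lines the exit tunnel, stood at 2171, 1645, 1707, 2709 and 2801 (0.56), Rpl8 at 1191, 1225, 1162, 1863 and 1596 (0.52) and Rpl6 at 933, 952, 911, 1306 and 1259.6 (0.46). For each of these genes, both Day 4 values lay above all embryo values. The 7 that fell were Rpl30 (-1.03), Rpl22l1 (-0.96), Rpl35 (-0.77), Rpl7l1 (-0.52), Rpl7a (-0.48), Rpl32 (-0.45) and the stalk base Rplp0 (-0.45). Rpl30 stood at -0.32 without Day 4 T_Y88A, where its call ended (adjusted p = 0.212 by limma). Among the 57 members not called was Rps27, at 2.01 ± 1.11 (SE) with adjusted p = 0.162 by limma and overlapping groups. Of the 25 calls, 7 held under every setting and with each library left out, Rps16, Rps29, Rps27a, Rps28 and Rpl22l1 among them. With no filter on low values 14 of the calls ended, and without Day 4 T_Y88A 13 ended. Without that library the differences were also over 1.5 times smaller for Rpl22l1 (-0.63), Rps27l (-0.52), Rps12 (-0.43), Rpl32 (-0.30) and Rps13 (-0.26) among those that fell, and for Rpl4 (0.32) among those that rose. Without the wt-labelled library of either system, Rps21 reached -2.75 and Rpl30 -1.56.

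**Figure D4:**
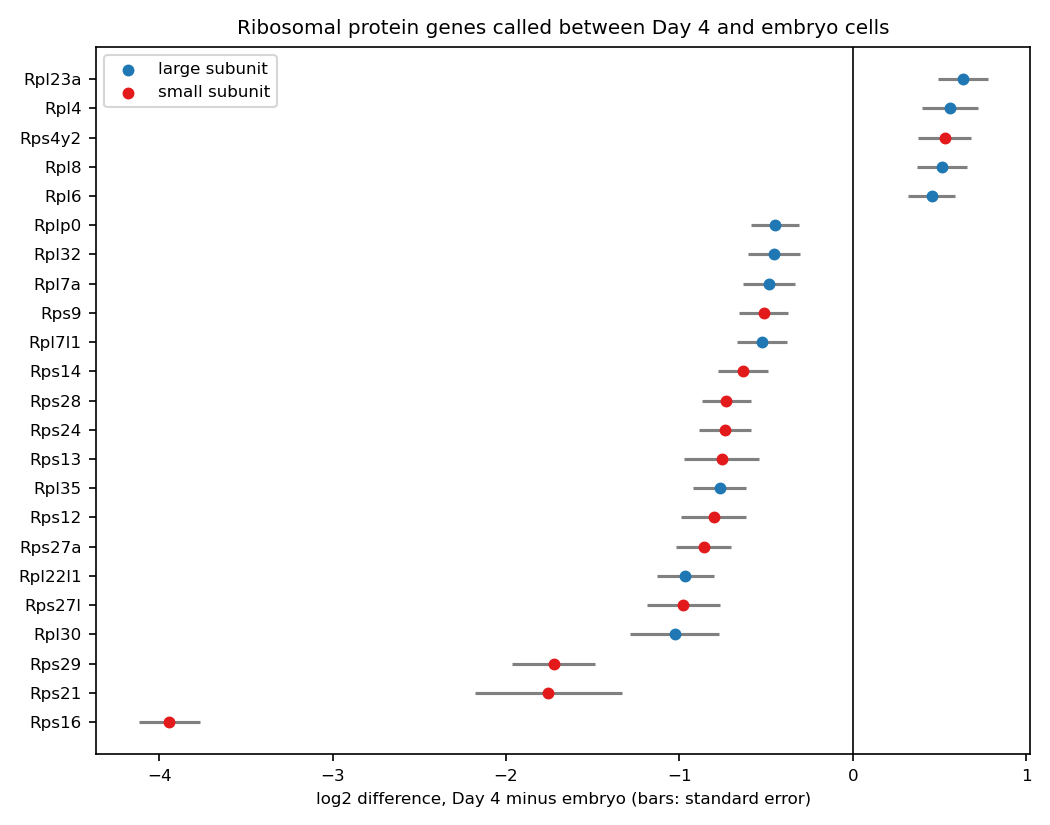
Log2 difference between Day 4 and embryo libraries, with its standard error, of 23 of the members called by limma, large subunit genes in blue and small subunit genes in red. Rps16 lies far to the left at -3.94, and the genes to the right of 0 lie between 0.46 and 0.64.

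Genes that build ribosomes were mostly lower at Day 4. Of the 39 biogenesis genes, 28 fell at Day 4 (26% of all genes fell) and 0 rose (25.9% of all genes rose), with a median log2 difference of -0.60. Ncl stood at 140.4, 94.5, 110.0, 37.4 and 24.3 FPKM, and Fbl, the fibrillarin methyltransferase of ribosomal RNA, at 161, 159.9, 135, 52.4 and 36.4. Rrs1, an assembly factor of the large subunit, stood at 40.6, 37.1, 34.3, 8.37 and 7.43. Nolc1 was listed at 0 in the wt-labelled Day 4 library and stood at 47.9 in Day 4 T_Y88A. Of the 20 other pyrimidine tract genes, 5 rose, close to the 25.9% of all genes, among them Eef2, the translocation factor, at 639, 628, 695, 1125 and 1216 FPKM. Another 8 fell (26% of all genes), among them Hnrnpa1, a splicing factor, at 1369, 1191, 1155, 397 and 196 FPKM. Of 76 mitochondrial ribosomal protein genes, 4 rose (25.9% of all genes), such as Mrpl23 at 89.0, 81.0, 79.8, 162 and 166 FPKM, and 27 fell (26% of all genes), such as Mrpl12 at 82.6, 97.0, 81.9, 12.3 and 14.6. Of 11 regulators, Eif4ebp1, a translation repressor under mTOR control, rose from 30.1, 36.0 and 40.6 FPKM in the embryo libraries to 83.3 and 152 at Day 4. Larp1, which binds pyrimidine tracts, and Mdm2 rose too, while Myc, Mycn and the S6 kinase gene Rps6kb1 fell, and Mtor, Rptor, Rps6kb2, Eif4ebp2 and Trp53 did not pass.

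Within Day 4 there was 1 library of each genotype and no test. Members had almost no common shift, at a median log2 difference of 0.05 (all genes -0.03). Their quartiles were -0.17 and 0.27 (all genes -0.26 and 0.21), so they spread no more widely than genes in general. At least 1.5-fold higher in T_Y88A were 5 members (4.54% of all genes) and at least 1.5-fold lower were 5 (5.94%), against 10.5% of all genes in either direction. Rps19, the gene most often mutated in Diamond-Blackfan anaemia in humans, stood at 423 and 938 FPKM and the stalk protein Rplp2 at 1606 and 3287, in the order labelled wild type and T_Y88A. Rps18 was at 700.4 and 1142, Rpl13a at 900.4 and 1378 and Rps2 at 1141 and 1724. In the other direction, Rps21 was at 1082 and 296 FPKM, Rps27 at 553 and 155 and Rps29 at 515 and 241. Rpl27 was at 1001 and 612. Just inside the limit was Rps2 (log2 difference 0.60), and Rpl26 was among those a little outside it (0.56). Day 4 T_Y88A was also the library with the highest Rn45s and the lowest relative depth, and their part in these differences was not tested.

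**Figure D5:**
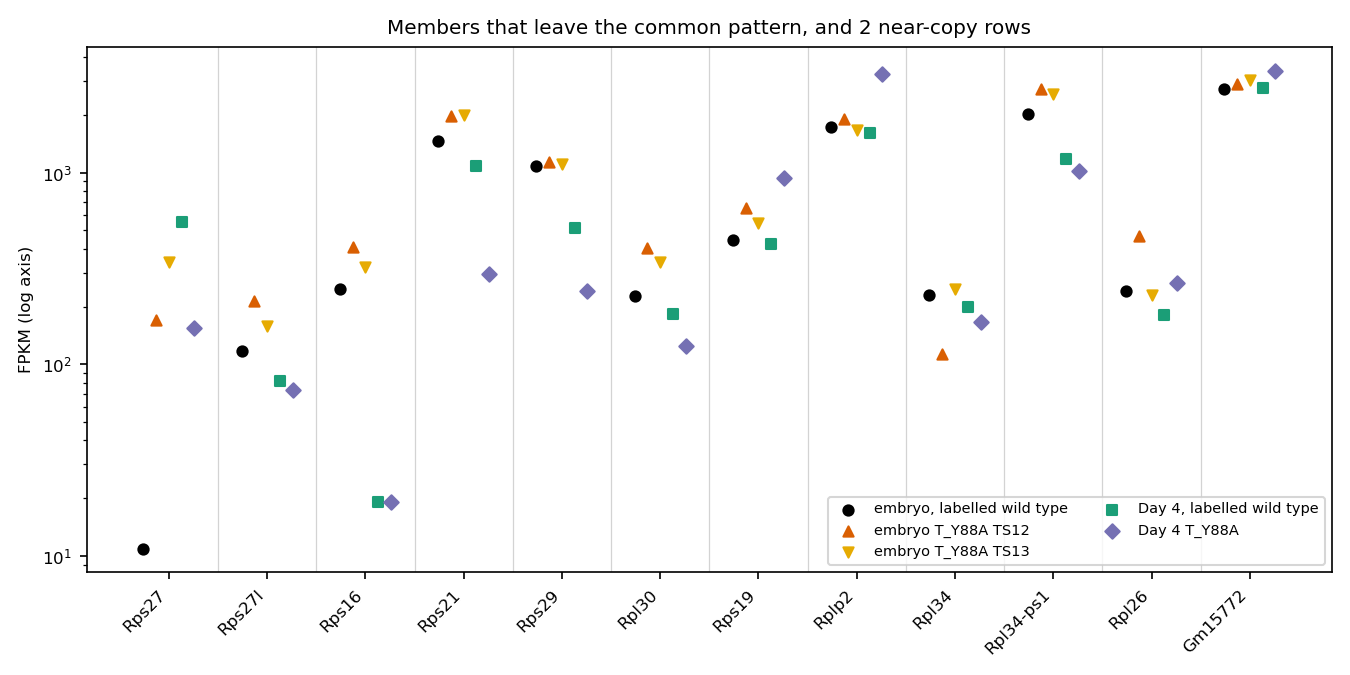
FPKM on a log axis in the 5 libraries of members that leave the common pattern, of Rps27l, and of the near-copy rows Rpl34-ps1 and Gm15772. Rps27 is lowest in the wt-labelled embryo library, Rps16 is low in both Day 4 libraries, and Rps21 and Rps29 are lowest in Day 4 T_Y88A.

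Over both systems together, no member was called for genotype by limma at the 0.05 threshold. Of all genes, 0.00862% were called higher, 0.0603% lower and 0.069% in either direction. An unadjusted p under 0.05 by limma was found for 8 of 82 members and for 1117 of 11602 genes tested. The member median was 0.16 (all genes -0.02), 0.26 for the small and 0.06 for the large subunit. Whether the genotype difference was the same in both systems was tested by an interaction. 2 members were called lower (0.0603% of all genes) and 0 higher (0.0862%), where 0.147% were called in either direction, and both were small subunit genes. For Rps21 the T_Y88A embryo libraries stood above the wt-labelled library and the Day 4 T_Y88A library far below its counterpart, a difference of -2.32 ± 0.21 (SE) with adjusted p = 0.0263 by limma. For Rps27 it was -6.18 ± 0.58 (SE) with adjusted p = 0.0321 by limma. The Rps21 call ended under 3 of the 9 other settings (adjusted p from 0.0610 to 0.129) and the Rps27 call under 6 (0.0594 to 0.18). Rpl30 (-1.24), Rps29 (-1.14), Rpl27 (-1.07) and Rplp2 (0.99) came next in size and did not pass. This fit compares 1 Day 4 library of each genotype with the embryo libraries and has 1 residual degree of freedom.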

How the data were processed

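RNA was sequenced from 5 libraries of sorted T-positive cells; 7 chromatin samples were not analysed here. The authors deposited 1 table of FPKM; Cufflinks 2.1.1, TopHat2 2.0.8 and bedtools 2.23.0 and the build mm10 are named, with no roles, per the submitters' processing notes. Strand handling and treatment of multiply mapping reads are not given in the sources used here. Columns were matched by the numbers and titles in the labels, with 0 columns left unused. Members were matched to RefSeq (GRCm38.p6), 84 by symbol and 1 by synonym.

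FPKM were analysed as log2(FPKM + 1), which understates the change of low genes, keeping genes whose mean over the compared libraries reached 1 FPKM. 792 small RNA symbols were left out of the tests. limma 3.58.1 in R 4.3.3, with a variance trend and two-sided p-values under Benjamini-Hochberg adjustment across all genes tested, fitted the embryo genotype (1 residual and 11 prior degrees of freedom), system and genotype over 5 libraries (2 and 6.06), and their interaction (1 and 5.15). The code was run on simulated data with large changes and equal, independent spread in all libraries. That run does not cover shifts as small as most of those here. Comparisons with 1 library each used a rule of 1.5-fold. Plots used Python 3.11.15 and matplotlib 3.10.9.

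Relative depth came from values below 0.06 FPKM; the commonest ratio held 29 of 112 low genes for Day 4 T_Y88A, so it is rough. Members and lists were chosen with earlier results of these data known. Named genes were members called in a fit, members more than 1 (log2) from the member median, the 5 highest and 5 lowest, those at 0, near copies with their parents, and called genes of the other lists, at most 5 per list and direction. Nop56, the runners-up to a call and the genes picked to describe cell type markers were named after their values were seen. A few genes are included in the counts but not reported here. Alternatives were other pseudocounts (0.1 and 5), filters, scalings, variance settings, small RNA genes kept and each library left out.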

Additional observations from a re-analysis of the deposited data

Results flagged for a closer look

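For 2 members the genotype difference itself differed between embryo and Day 4 cells by limma's interaction term. The difference at Day 4 minus that in embryos was -2.32 on the log2 scale for Rps21 and -6.18 for Rps27. Rps21 stood at 1457, 1985, 1999, 1082 and 296 FPKM and Rps27 at 10.9, 169.8, 343, 553 and 155, in the order embryo labelled wild type, T_Y88A TS12, T_Y88A TS13, Day 4 labelled wild type and Day 4 T_Y88A. For Rps27 the low library is the embryo one labelled wild type, and for Rps21 it is Day 4 T_Y88A. Each rests on 1 library, and neither low library has a second library of its own group.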

How the results depend on the processing

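No paired analysis was possible because the labels give no replicate numbers that the groups share. In embryos, members called higher numbered 2, but 1 with quantile normalization, median ratio scaling, no variance trend or small RNA genes kept, and 0 with no filter; the median of 0.18 became 0.10 with quantile normalization, and small subunit genes below the wt-labelled library in both T_Y88A libraries went from 0 to 2. For Day 4 against embryos, 6 higher and 19 lower became 16 and 13 with quantile normalization (median 0.065 in place of -0.15) and 3 and 9 with no filter. Leaving out each library gave 2 to 11 higher (2 without T_Y88A TS13, 10 without the embryo and 11 without the Day 4 library labelled wild type), 9 to 25 lower (9 without Day 4 T_Y88A) and medians of -0.21 to -0.058. For genotype over both systems, leaving out each library gave 0 to 1 higher, 0 to 1 lower and medians of 0.054 to 0.18; with quantile normalization the median was 0.058. The 2 interaction calls became 1 at a pseudocount of 0.1, with quantile normalization or with robust variance moderation, and 0 with no filter, with no variance trend or with small RNA genes kept. No named call reversed under the settings run. The cause of these losses was not tested. A median counted as moved when it shifted by more than 0.0671, the SD between the 2 T_Y88A embryo libraries. With FPKM, depth is unknown.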
